A study of Mus musculus with 20 samples.

Results

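The genes described here are the collagens, the 44 genes whose symbol is Col followed by a type number, the letter a and a chain number, and which held at least 10 estimated counts over the 20 libraries. They were picked by symbol and total count from 53518 features, of which 26188 were named genes with at least 10 counts. They cover 27 collagen types. All 44 genes with such a symbol in the RefSeq gene table used here were measured, and the scarcest held 496 counts over all libraries.

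RNA was sequenced from trigeminal ganglia (TG), the ganglia whose sensory neurons supply the face, and from the nucleus accumbens (NAc), a part of the ventral striatum. The animals were 10 male C57BL/6J mice aged 9 to 12 weeks, and both tissues came from every mouse. Of these, 5 mice received morphine (labelled OIH, in this field short for opioid-induced hyperalgesia) and 5 received vehicle, and tissue was taken 24 h after the last injection, so that there were 4 groups of 5 libraries. The labels give neither the dose nor the number of injections, and name no genetic change. The study compared morphine with vehicle in each tissue, and the shared design also allows a comparison of the tissues.

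TG libraries held 61285916 to 76110288 counts and NAc libraries 52402037 to 64357778. Summed markers of sensory neurons, 12 genes, ran from 4231 to 4961 CPM (counts per 1000000 counts of the library) in TG and from 26.0 to 47.5 CPM in NAc, while 10 markers of striatal neurons summed to 215 to 238 CPM in TG and 1882 to 6051 CPM in NAc. The vehicle NAc library of replicate 2 stood apart: it had the lowest striatal sum, and 5 of its collagen values lay far above the other vehicle NAc libraries. Pituitary markers, 9 genes, summed to between 19.9 and 1442 CPM across TG libraries of both treatments. Each p-value rests on the spread between the libraries of a group, which came from different mice. Tests between tissues and of the interaction treated both tissues of a mouse as separate animals, except in the fit with mouse as block.

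A collagen gene encodes an alpha chain, and chains wind into triple helices that are secreted and assembled outside the cell. Fibrillar collagens form the tensile fibrils of connective tissue, type IV forms the sheet of basement membranes, type VI forms beaded filaments beside cells, and the fibril-associated, multiplexin and transmembrane types link these structures to each other or to the cell surface. In ganglia and peripheral nerve, fibroblasts lay down fibrils around and between axons and glia, and basement membranes wrap Schwann cells and vessels. The brain parenchyma holds little fibrillar collagen away from vessels and meninges.

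Most collagens were more abundant in TG than in NAc. In vehicle mice 36 of the 44 differed between the tissues, 27 higher and 9 lower in TG (edgeR quasi-likelihood test, Benjamini-Hochberg adjusted p under 0.05 over all features). Among all 32998 features tested, 67.4% passed, 32.9% higher in TG and 34.5% lower. In morphine mice 38 of 44 differed, 29 higher and 9 lower, beside 68.2% of all features (33.4% higher and 34.9% lower). The median log2 fold change of the collagens was 1.58 in vehicle mice and 1.64 in morphine mice, while that of all features was -0.06 in each. With libraries scaled by their size alone the median of all features moved to -0.21 in vehicle mice and -0.22 in morphine mice. In both treatments 35 genes passed, each in the same direction, and 5 passed in neither. In bulk tissue, fewer cells of a type and less RNA per cell cannot be told apart.

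**Figure D1:**
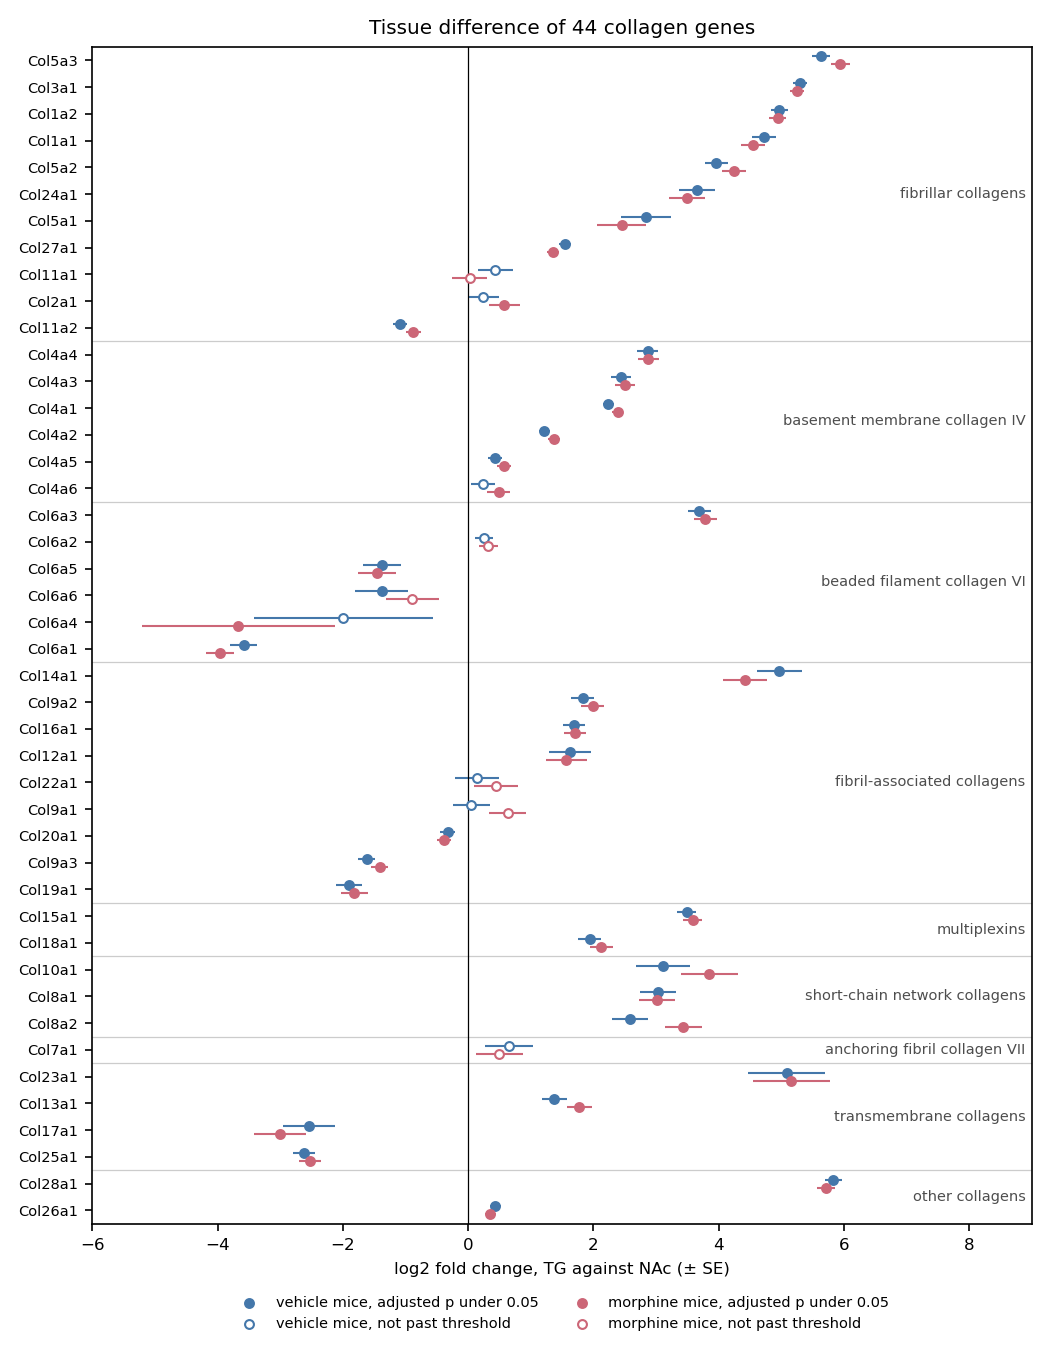
Log2 fold change of each collagen gene, TG against NAc, with its SE, in vehicle mice (blue) and morphine mice (red), grouped by class; filled circles passed an adjusted p of 0.05 and open circles did not. Most circles lie to the right of 0, with Col28a1 at 5.83 and Col5a3 at 5.63 in vehicle mice, and Col6a1 lies at -3.58.

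The fibrillar collagens had the largest median difference of the 9 classes, with 8 of 11 higher and 1 lower in TG of vehicle mice and a median log2 fold change of 3.65. Col1a2, the second chain of type I collagen (gene at chr6:4505618-4541543), measured 277, 271, 312, 330 and 296 CPM in vehicle TG and 11.7, 9.79, 8.87, 10.2 and 6.87 CPM in vehicle NAc. The lowest ganglion was far above the highest accumbens library. Its level in TG was 31.3-fold that in NAc, a log2 fold change of 4.97 ± 0.14 (SE; edgeR adjusted p = 3.2e-16). Col3a1, whose product pairs with type I in soft tissue and vessels (chr1:45311538-45349706), averaged 92.8 ± 6.16 CPM in vehicle TG and 2.35 ± 0.247 CPM in vehicle NAc (SD, n = 5), 39.5-fold apart. Col1a1, the main type I chain, averaged 78.4 ± 9.13 and 2.97 ± 0.693 CPM.

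Type V chains, which set fibril diameter, were also higher in TG. Col5a3, a type V chain that Schwann cells of the rat produce, read 228, 209, 241, 228 and 230 CPM in vehicle TG and 4.57, 6.46, 5.02, 3.78 and 3.05 CPM in vehicle NAc. No NAc value came near the ganglia, and the log2 fold change was 5.63 ± 0.15 in vehicle mice and 5.94 ± 0.15 in morphine mice. Col5a2 differed by 3.96 ± 0.19 and Col5a1 by 2.84 ± 0.40 on the log2 scale in vehicle mice. In morphine mice the value of Col5a1 was 2.45 ± 0.39, and it became 3.13 without the morphine NAc library of replicate 3, in which Col5a1 stood at 26.0 CPM against 4.88 to 8.83 CPM in the other 4. The minor fibrillar chains Col24a1 and Col27a1 were 12.5-fold and 2.91-fold higher in TG of vehicle mice.

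The cartilage-type fibrillar chains were the exception within the class. Col11a2 was lower in TG, at 19.7 ± 2.93 CPM against 41.9 ± 5.03 CPM in NAc of vehicle mice, with ranges that did not overlap. Its partner Col11a1 averaged 11.6 ± 2.03 and 8.58 ± 4.14 CPM and passed in neither treatment. Col2a1, the main cartilage collagen, was at 3.04 ± 0.159 and 2.57 ± 1.31 CPM. It passed in morphine mice only (edgeR adjusted p = 0.0449), a call lost in 20 of 28 alternatives, with adjusted p-values up to 0.155, the mouse block among them (adjusted p = 0.0805). Without the vehicle NAc library of replicate 2, Col11a1 and Col2a1 both passed in vehicle mice, with log2 fold changes of 0.77 and 0.59.

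The stretches just before the starts of Col1a2 and Col3a1 are printed because these fibrillar chains were 31.3-fold and 39.5-fold higher in TG, and those of Col6a1 and Col6a3 because these partner chains of type VI differed between the tissues in opposite directions. Each is the 250 bases before the start used in the RefSeq GRCm38.p6 promoter table, which for Col6a3 lies within the gene's listed span, read 5′ to 3′ on the gene's strand, at chr6:4505368-4505617 on the plus strand, chr1:45311288-45311537 on the plus strand, chr10:76726045-76726294 on the minus strand and chr1:90843972-90844221 on the minus strand in this order. Capitals mark CCAAT (on the other strand ATTGG), the GC box GGGCGG (on the other strand CCGCCC) and the TATA motif TATAAA (on the other strand TTTATA).
Col1a2: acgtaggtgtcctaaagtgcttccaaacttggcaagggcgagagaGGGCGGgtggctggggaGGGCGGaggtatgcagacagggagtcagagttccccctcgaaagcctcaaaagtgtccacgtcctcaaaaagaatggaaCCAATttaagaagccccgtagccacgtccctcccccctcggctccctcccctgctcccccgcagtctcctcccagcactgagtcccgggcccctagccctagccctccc
Col3a1: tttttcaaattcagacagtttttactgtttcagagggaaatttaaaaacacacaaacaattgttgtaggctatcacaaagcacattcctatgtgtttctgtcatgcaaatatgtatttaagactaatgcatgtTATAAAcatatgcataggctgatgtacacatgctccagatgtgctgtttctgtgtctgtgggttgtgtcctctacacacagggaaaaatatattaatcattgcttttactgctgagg
Col6a1: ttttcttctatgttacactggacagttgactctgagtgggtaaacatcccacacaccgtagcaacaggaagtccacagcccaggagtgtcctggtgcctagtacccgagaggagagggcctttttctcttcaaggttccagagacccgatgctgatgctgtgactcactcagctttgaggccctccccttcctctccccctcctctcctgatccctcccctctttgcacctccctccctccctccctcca
Col6a3: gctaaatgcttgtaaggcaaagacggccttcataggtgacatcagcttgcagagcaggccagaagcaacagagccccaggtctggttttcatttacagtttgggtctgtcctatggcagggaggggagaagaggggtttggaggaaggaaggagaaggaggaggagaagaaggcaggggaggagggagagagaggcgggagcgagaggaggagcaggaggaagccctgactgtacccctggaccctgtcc
Col1a2 held 1 CCAAT and 2 GC boxes, Col3a1 held 1 TATAAA, and the windows of Col6a1 and Col6a3 held none of these letters. Of the 44 collagens, 35 had an entry in the promoter table. The entries not given were those of Col12a1, Col14a1, Col1a1, Col22a1, Col26a1, Col2a1, Col4a3, Col5a2 and Col9a3. Over the same 250 bases, CCAAT stood before 12 of the 35 collagens (34.3%) and 34.5% of 27025 promoters. The GC box stood before 21 of 35 (60.0%) and 32.9% of all promoters, and TATAAA before 5 of 35 (14.3%) and 13.0%. The windows of Col1a2 and Col3a1 shared no motif of this set.

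Basement membrane collagen IV was higher in TG for 5 of 6 chains in vehicle mice and for all 6 in morphine mice. Col4a1 (chr8:11198423-11312889), the main chain of the vessel and nerve network, read 219, 203, 262, 249 and 236 CPM in vehicle TG and 47.5, 51.9, 56.5, 51.8 and 40.2 CPM in vehicle NAc. Its partner Col4a2 read 149, 139, 170, 164 and 153 CPM in TG and 65.2, 83.1, 69.8, 63.9 and 51.5 CPM in NAc. Neither pair of ranges overlapped, but the gap was wider for Col4a1, with log2 fold changes of 2.24 ± 0.09 and 1.22 ± 0.09. The chains of specialised membranes were scarce. Col4a3 and Col4a4, partners in the kidney filter, averaged 4.76 ± 0.482 and 6.45 ± 0.237 CPM in vehicle TG, and were 5.45-fold and 7.30-fold higher there than in NAc. Col4a5 was 1.34-fold higher, a call lost with scaling by library size alone (edgeR adjusted p = 0.065), and Col4a6 passed in morphine mice only (edgeR adjusted p = 0.027). That call was lost with library-size scaling (adjusted p = 0.133) and without TG morphine replicate 1 or 3 or NAc morphine replicate 4 or 5. Col4a1 and Col4a2 lie head to head on opposite strands. By the starts used in the promoter table they share 22 bases, chr8:11312805-11312826. The gene spans listed in RefSeq share more, from 11312805 to 11312889.

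The beaded filament chains of type VI parted by tissue. Col6a1 (chr10:76708792-76726044), the first chain of the classical type VI molecule, read 400, 212, 304, 324 and 261 CPM in vehicle NAc and 358, 433, 285, 417 and 417 CPM in morphine NAc. Counts estimated per transcript cannot show whether all reads given to Col6a1 in NAc come from this gene, and each NAc value of it here carries that limit. In TG it read 28.5, 33.9, 18.6, 21.2 and 22.8 CPM in vehicle mice and 34.8, 18.3, 20.1, 26.1 and 23.3 CPM in morphine mice. Every NAc library exceeded every TG library, and the log2 fold change, TG against NAc, was -3.58 ± 0.22 in vehicle mice (edgeR adjusted p = 3.61e-11) and -3.96 ± 0.22 in morphine mice. Its neighbour and partner Col6a2 had a mean of 26.8 ± 4.08 CPM in vehicle TG and of 22.5 ± 4.30 CPM in vehicle NAc, overlapping ranges that passed in neither treatment; in morphine mice 4 of 28 alternatives called it, DESeq2 among them (adjusted p = 0.0455). The third classical chain, Col6a3, went the other way, with 43.4 ± 3.87 CPM in TG and 3.35 ± 0.704 CPM in NAc of vehicle mice, a log2 fold change of 3.69 ± 0.18.

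The chains that can take the place of Col6a3 were scarce and favoured NAc. Col6a5 had a mean of 2.15 ± 0.885 CPM in vehicle TG and of 5.61 ± 1.52 CPM in vehicle NAc, and passed in both treatments. Col6a6, at 0.237 ± 0.140 and 0.621 ± 0.305 CPM, passed in vehicle mice only. Col6a4 swung between libraries, from 0 in 2 vehicle libraries of each tissue to 3.19 CPM in TG and a maximum of 9.52 CPM in NAc. In both tissues the vehicle libraries at 0 came from the same mice, replicates 3 and 4, and replicate 1 was the highest vehicle library. Among morphine mice, replicate 4 was at 0 in TG but held 115 counts in NAc. It passed in morphine mice only (edgeR adjusted p = 0.0424). That call was lost on leaving out any of 8 of the 10 morphine libraries.

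The fibril-associated collagens split, with 4 of 9 higher and 3 lower in TG of vehicle mice. Col14a1, which binds the surface of type I fibrils, stood at 48.0, 45.2, 52.8, 53.2 and 48.6 CPM in vehicle TG and at 1.19, 1.66, 2.02, 2.28 and 0.767 CPM in vehicle NAc, 31.3-fold apart. Col16a1 and Col12a1 were 3.22-fold and 3.09-fold higher in TG. Col19a1, a product of interneurons in the mouse brain, was 3.74-fold lower in TG, at 4.02 ± 0.362 CPM against 15.1 ± 5.15 CPM. Col20a1 was 1.26-fold lower with overlapping ranges, and its vehicle call was lost without the NAc library of replicate 3 (adjusted p = 0.051) or 5 (adjusted p = 0.0665). The type IX chains, known from cartilage, differed from each other: Col9a2 was 3.55-fold higher and Col9a3 3.08-fold lower in TG, while Col9a1, under 1 CPM in every library, passed in neither treatment. Col22a1, of tissue junctions, passed in neither as well.

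The multiplexins, which sit at the outer face of basement membranes, were higher in TG. Col15a1 averaged 65.1 ± 5.83 CPM in vehicle TG and 5.80 ± 1.89 CPM in vehicle NAc, and Col18a1, the source of endostatin, 25.6 ± 1.50 and 6.66 ± 2.85 CPM. In both genes the highest vehicle NAc value was that of replicate 2, and without it the log2 fold changes went from 3.49 to 3.71 and from 1.94 to 2.24. All 3 short-chain network collagens were higher in TG, by 8.19-fold for Col8a1, 6.00-fold for Col8a2 (both of vessel walls and the corneal membrane) and 8.62-fold for Col10a1, a marker of growth-plate cartilage at no more than 1.07 CPM. Col7a1, the anchoring fibril of skin, passed in neither treatment, at 8.08 ± 2.08 and 5.13 ± 2.27 CPM.

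The transmembrane collagens held extremes in both directions. Col25a1, a neuronal collagen also found in amyloid plaques, read 73.0, 140, 94.0, 96.7 and 59.3 CPM in vehicle NAc and 15.1, 16.6, 14.7, 14.6 and 14.6 CPM in vehicle TG, so that each NAc library was far above the ganglia. The log2 fold change was -2.62 ± 0.18, and -2.42 without the NAc library of replicate 2, the highest. Col17a1, of epithelial attachment sites, was 5.82-fold lower in TG but reached only 2.61 CPM. Col23a1 stood at 73.1 ± 4.58 CPM in vehicle TG and 2.17 ± 1.38 CPM in NAc, where 1 vehicle and 1 morphine library were at 0.0603 and 0 CPM. Col13a1, of the neuromuscular junction, was 2.60-fold higher in TG. Col28a1 (chr6:7997100-8193709), which surrounds glia of mouse peripheral nerve, had the largest vehicle fold of the 44 in edgeR and DESeq2 (in limma voom Col23a1 was above it, at 7.16 against 5.85 on the log2 scale), at 139, 129, 164, 158 and 145 CPM in TG and 2.67, 2.42, 2.22, 2.58 and 2.98 CPM in NAc, 56.9-fold apart. Col26a1 was 1.35-fold higher in TG.

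Levels can be compared between genes only per length. This was done as CPM per kb of transcript for the 30 collagens with at least 50% of their counts on the transcript whose length was used. The collagens left out, among them the abundant Col28a1, Col15a1, Col24a1 and Col16a1, have no place in this order. In vehicle TG, Col1a2 led at 55.6 ± 4.53 CPM per kb, above every other of the 30 genes. Col5a3 at 37.1 ± 1.88 and Col4a1 at 35.3 ± 3.55 CPM per kb had overlapping ranges, and Col4a2 at 24.0 ± 1.93 and Col3a1 at 16.7 ± 1.11 CPM per kb followed without overlap. In vehicle NAc, Col6a1 had the highest mean at 73.2 ± 17.2 and Col25a1 came next at 35.3 ± 11.7 CPM per kb, with ranges that overlapped. Col4a2 at 10.3 ± 1.77 CPM per kb was below both, and from there down each gene overlapped the next. Of 29 neighbouring pairs in the order, 20 overlapped in TG and 28 in NAc.

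The make-up of the collagen counts differed between the tissues as well. These shares are of CPM without correction for length, so longer transcripts weigh more in them. Fibrillar chains supplied 47.6% to 48.8% of the summed collagen CPM in vehicle TG and 11.9% to 13.5% in vehicle NAc. Col6a1 alone supplied 27.2% to 46.4% of it in vehicle NAc, as far as the reads given to it come from the gene, and 0.873% to 1.74% in vehicle TG. The collagen sum ran from 1952 to 2136 CPM in vehicle TG and from 664 to 863 CPM in vehicle NAc.

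Chains that assemble together did not keep 1 ratio across tissues. For 7 pairs, chosen after their values had been seen, the ratio of CPM per kb was compared between TG and NAc in each treatment by a 2-sided exact permutation test of log2 ratios, 5 against 5 libraries, giving 14 tests. The ratio of Col6a1 to Col6a2 was 0.895, 1.04, 0.803, 0.831 and 0.889 in vehicle TG and 14.6, 12.1, 14.7, 14.0 and 9.27 in vehicle NAc. In the ganglia these chains were near parity, and in every NAc library Col6a1 exceeded Col6a2 at least 9.27-fold, with the limit that the origin of all Col6a1 reads in NAc is not shown by these counts. The ratio of Col6a3 to Col6a2 averaged 0.718 ± 0.0737 in vehicle TG and 0.0691 ± 0.0268 in vehicle NAc.

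The ratio of Col4a1 to Col4a2 was above 1 in TG, at 1.47 ± 0.0355, and below 1 in NAc, at 0.732 ± 0.0762. With the curated coding transcript of Col4a1 alone, a choice added after seeing the data, the means were 1.34 and 0.459. The ratio of Col9a2 to Col9a3 turned over as well, from 3.93 ± 0.462 in TG to 0.356 ± 0.133 in NAc. For these 4 pairs and Col5a1 to Col5a2 the tissues did not overlap in either treatment (exact permutation p = 0.00794, the smallest that 5 against 5 allows; 0.0101 adjusted over the 14 tests). The ratio of Col1a1 to Col1a2 was 0.239 ± 0.0281 in TG and 0.282 ± 0.031 in NAc of vehicle mice (exact p = 0.0476, adjusted 0.0556), and 0.199 ± 0.0345 and 0.265 ± 0.0165 in morphine mice, where the tissues did not overlap (exact p = 0.00794, adjusted 0.0101). Col8a1 to Col8a2 missed the threshold in both treatments (exact p = 0.159 and 0.0714). The test treats the tissues as separate animals, although each mouse gave both. Because the pairs were chosen with their values known, these p-values describe a separation already seen and give no support of their own.

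**Figure D2:**
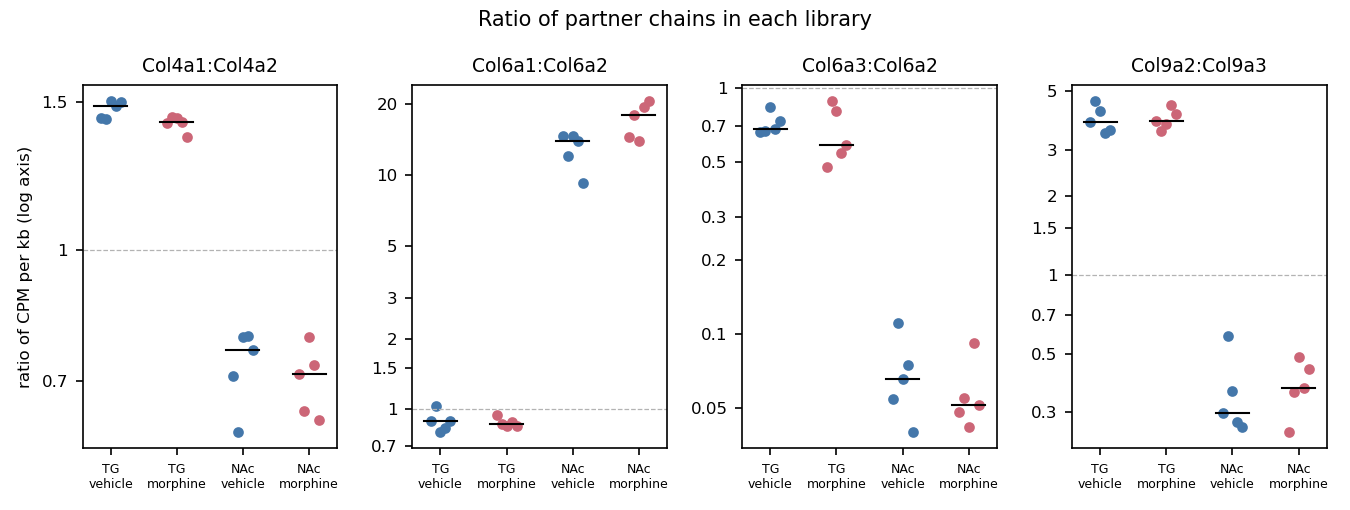
Ratio of CPM per kb (log axis) for 4 pairs of partner chains in every library of the 4 groups; black lines are medians and the dashed line is a ratio of 1. Col6a1 to Col6a2 lies at 0.803 to 1.04 in vehicle TG and at 9.27 to 14.7 in vehicle NAc, and Col4a1 to Col4a2 lies above 1 in TG and below 1 in NAc.

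After morphine, no collagen passed the threshold in TG, where 0.18% of 29394 features did. Of the 12 genes with the smallest p, 11 had negative values, and Col3a1, Col15a1 and Col14a1 had no overlap between the groups. Unadjusted, 12 of 44 collagens (27.3%) had a p under 0.05, beside 10.1% of all features, 11 with a negative and 1 with a positive log2 fold change. Of the 44, 32 had a negative value, beside 50.8% of all features, and the median was -0.07. DESeq2 called 3 collagens, the same 3 genes, among 926 features in all, and limma voom called 0 collagens among 80.

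Col3a1 read 91.4, 94.0, 99.2, 96.3 and 83.0 CPM in vehicle TG and 75.6, 60.1, 57.2, 69.3 and 51.4 CPM in morphine TG. Every morphine ganglion was below every vehicle ganglion. The log2 fold change was -0.57 ± 0.10 (edgeR adjusted p = 0.0687), and leaving out single libraries gave adjusted p-values from 0.0427, without the morphine library of replicate 1, to 0.184. As a share of the summed collagen CPM, Col3a1 went from 4.06% to 4.82% in vehicle TG to 2.97% to 3.77% in morphine TG.

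Col15a1 read 58.2, 60.1, 72.0, 68.8 and 66.3 CPM in vehicle TG and 50.6, 55.5, 50.5, 56.5 and 45.7 CPM in morphine TG (log2 fold change -0.33 ± 0.07, edgeR adjusted p = 0.129). Col14a1 read 48.0, 45.2, 52.8, 53.2 and 48.6 CPM and then 44.7, 42.5, 44.3, 42.4 and 38.7 CPM (-0.22 ± 0.05, adjusted p = 0.158). In both genes the groups were close but did not overlap. Such full separation downwards was seen for 3 of 44 collagens and 0.997% of all features, and upwards for 0 of 44 and 1.59%. The 2 type I chains, Col1a1 at 78.4 ± 9.13 and 58.7 ± 14.6 CPM and Col1a2 at 297 ± 24.2 and 264 ± 24.9 CPM, overlapped between the groups and had adjusted p-values of 0.404 and 0.464. Col26a1 (-0.24 ± 0.07), Col28a1 (-0.17 ± 0.06) and Col4a4 (-0.18 ± 0.07) had adjusted p-values of 0.307 to 0.384. The positive value with p under 0.05 was that of Col19a1, 0.20 ± 0.09 (adjusted p = 0.496). Other abundant chains had closer means, such as Col5a3 at 227 ± 11.5 and 225 ± 10.1 CPM and Col4a2 at 155 ± 12.4 and 153 ± 6.79 CPM.

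**Figure D3:**
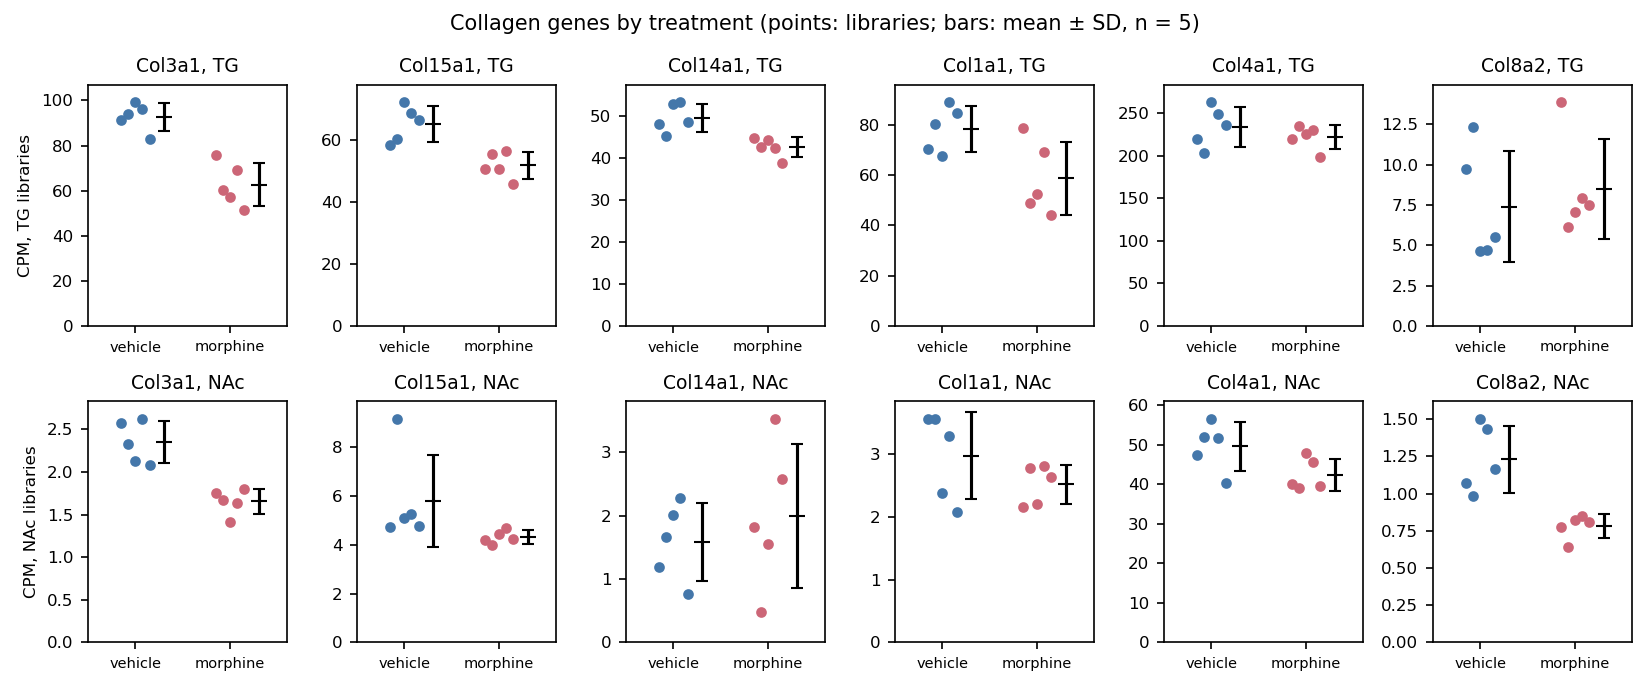
CPM of 6 collagen genes in vehicle (blue) and morphine (red) libraries of TG (top) and NAc (bottom); each point is a library, and the bars give the mean ± SD of 5. Col3a1 is lower in every morphine library than in any vehicle library in both tissues, and Col1a1 overlaps in both.

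Marker lists of other cell types were read in the same TG libraries. Of 15 fibroblast markers 0 passed, 8 had positive and 7 negative values, and the median log2 fold change was 0.05. Their sum was 1920 to 2191 CPM in vehicle and 1989 to 2168 CPM in morphine TG. The fibroblast proteoglycans Dcn (-0.23 ± 0.08) and Lum (-0.32 ± 0.11), picked after their values had been seen, were among the negative ones (edgeR adjusted p = 0.366 and 0.378). The 8 positive ones are not named, so Dcn and Lum do not stand for the list. The 10 endothelial markers summed to 168 to 190 CPM and 156 to 178 CPM, with 9 of 10 negative and 0 past the threshold. All 9 pituitary markers had positive values, with sums of 19.9 to 1049 CPM in vehicle and 47.2 to 1442 CPM in morphine TG. All 8 oligodendrocyte markers had positive values too, with sums of 448 to 580 CPM and 472 to 641 CPM, and 0 passed. Of 8 satellite glia markers, summing to 3249 to 3743 CPM and 3210 to 3493 CPM, 4 were positive and 4 negative, and 1, Fabp7, fell (-0.68 ± 0.06, edgeR adjusted p = 0.00435). No marker of these lists was at 0 in every library. Their part in the collagen values was not tested.

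In NAc no collagen passed after morphine either, and neither did any feature (0 of 29912; 0.0% called). Col10a1 was too scarce to be tested there. Unadjusted, 5 of 43 collagens (11.6%) had a p under 0.05, all with negative values, beside 5.71% of all features, and 32 of 43 had a negative value, beside 51.9%. The median was -0.14. Part of this lean rested on the vehicle library of replicate 2. Without it the median was -0.086 and fewer values were negative. Col18a1, for example, went from -0.26 to 0.037. DESeq2 called 1 collagen, Col3a1, among 245 features in all, and limma voom called 0 collagens.

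Col3a1 again had the smallest p, from a level 39.5-fold lower than in TG. It read 2.57, 2.33, 2.13, 2.62 and 2.08 CPM in vehicle NAc and 1.76, 1.67, 1.42, 1.63 and 1.80 CPM in morphine NAc. The groups did not overlap, and the log2 fold change was -0.51 ± 0.12 (edgeR adjusted p = 0.393). Col8a2 read 1.07, 0.984, 1.50, 1.43 and 1.17 CPM and then 0.776, 0.645, 0.826, 0.851 and 0.811 CPM, also without overlap (-0.66 ± 0.16, adjusted p = 0.422).

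Col15a1, the third gene without overlap, owed part of its value to 1 library. Its log2 fold change was -0.43 ± 0.19, and -0.20 without the vehicle library of replicate 2, which stood at 9.17 CPM against 4.74 to 5.25 CPM in the other 4 and 3.98 to 4.70 CPM after morphine. Separation downwards was seen in 3 of 43 collagens and 1.07% of features, upwards in 0 and 0.665%. Col4a1 (-0.23 ± 0.10) and Col9a1 (-0.76 ± 0.33) had unadjusted p-values of 0.0398 and 0.044, and the abundant Col6a1 had a positive value of 0.35 ± 0.17 (edgeR adjusted p = 0.908).

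Several marker lists had mostly negative values in the same NAc comparison, while all 10 striatal neuron markers were positive, with sums of 1882 to 6051 CPM in vehicle and 3726 to 4545 CPM in morphine NAc, as were 3 of 4 choroid plexus markers tested, with sums of 6.42 to 19.3 CPM and 7.54 to 24.8 CPM over 6 genes; 0 of either passed. The 12 sensory neuron markers summed to 36.2 to 47.5 CPM in vehicle and 26.0 to 38.3 CPM in morphine NAc, with 10 of 11 tested negative and 0 past the threshold. The 10 Schwann cell markers, which include the myelin gene Mbp that oligodendrocytes also express, summed to 2346 to 2597 CPM and 2046 to 2178 CPM without overlap, 8 of 10 negative. All 8 oligodendrocyte markers were negative, at 676 to 869 CPM and 592 to 680 CPM, as were all 8 satellite glia markers, at 3348 to 3790 CPM and 2907 to 3546 CPM, and 0 of either passed. The 15 fibroblast markers summed to 180 to 243 CPM and 201 to 247 CPM, a sum of which Apod supplied 46.8% over all libraries. Of the 13 fibroblast markers tested, 9 were negative and 0 passed, with a median log2 fold change of -0.13. No marker of these lists was at 0 in every library. Their part in the collagen values was not tested.

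The response of the collagens to morphine was not found to differ between the tissues. The interaction (the TG effect less the NAc effect) passed for 0 of 44 collagens, beside 0.0394% of 32998 features. Only Col8a2 had an unadjusted p under 0.05, with 0.85 ± 0.38 on the log2 scale (edgeR adjusted p = 0.706), and DESeq2 and limma voom called 0. For Col3a1 the difference between the effects was -0.06 ± 0.14, with a sign that turned (to 0.00) without the morphine TG library of replicate 5. The median over the collagens was 0.07, and -0.03 without the vehicle NAc library of replicate 2.

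**Figure D4:**
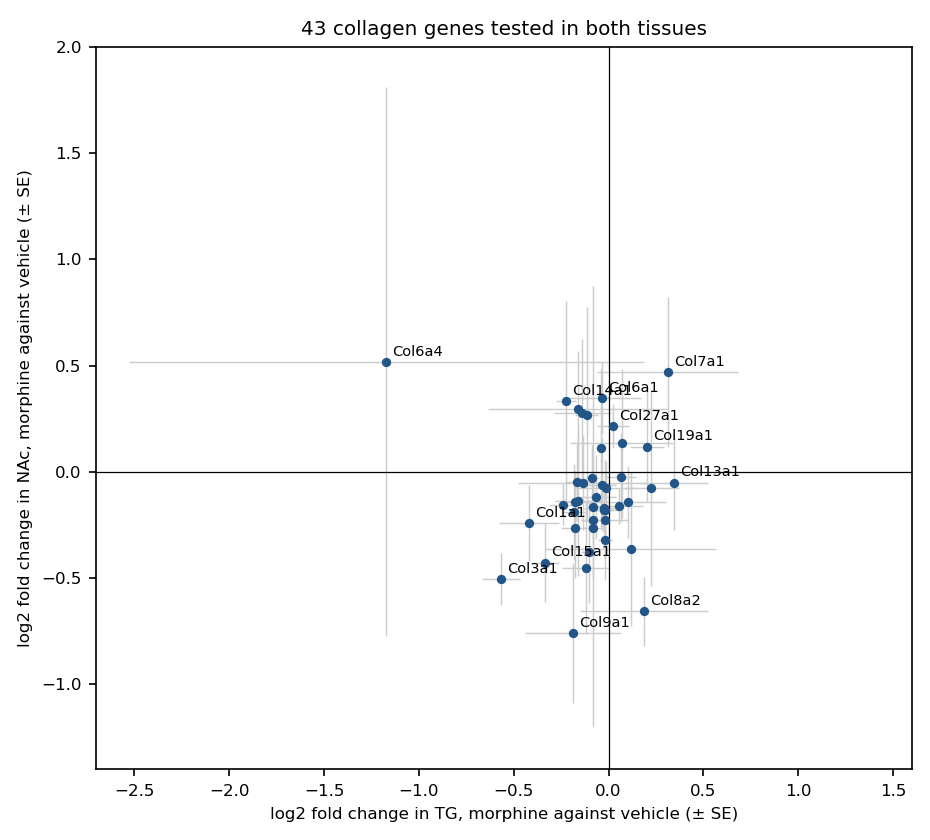
Log2 fold change after morphine in TG (x axis) and NAc (y axis) with SE for the 43 collagen genes tested in both tissues, some named. None passed the threshold in either tissue; Col3a1 lies at -0.57 and -0.51, and Col6a4 has the widest error.

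Genes that make, fold and bind collagen or act on its breakdown followed the tissue difference in part. Over all features 32.9% were higher and 34.5% lower in TG of vehicle mice. Of 30 genes of synthesis and cross-linking, 24 were higher and 2 lower, including Serpinh1, the collagen chaperone, at 102 ± 13.1 CPM against 16.0 ± 1.82 CPM in NAc, and Lox, the cross-linking oxidase, at 21.5 ± 4.59 against 0.542 ± 0.0757 CPM. Of 12 receptor genes 7 were higher and 5 lower, with Itgb1, the shared beta chain of collagen-binding integrins, 2.36 ± 0.03 higher on the log2 scale. The 11 breakdown genes include the inhibitors Timp1, Timp2, Timp3 and Timp4, and Timp2 supplied 62.3% of their CPM summed over all libraries. Of the 11, 9 were higher and 1, Timp4, lower. Of 15 other basement membrane genes 10 were higher and 3 lower, with Hspg2 (perlecan) 4.96 ± 0.09 higher on the log2 scale.

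None of the genes in these 4 lists passed after morphine in either tissue in edgeR over all features. Of those named next, DESeq2 called Lama4, Lamc1, P4ha1 and Serpinh1 in TG, among 926 features in all, and Plod1 in NAc, among 245. With named genes alone, edgeR called Lamc1 in TG (adjusted p = 0.0497). The smallest p in TG belonged to Lama4, a laminin chain of vessels and nerve (-0.13 ± 0.03, edgeR adjusted p = 0.0871), and Lamc1 (-0.22 ± 0.04, adjusted p = 0.119). Among synthesis genes in TG, P4ha1, a prolyl hydroxylase, had -0.23 ± 0.05 (adjusted p = 0.167) and Serpinh1 -0.29 ± 0.08 (adjusted p = 0.219), and 22 of 30 values were negative in each tissue. Lox had a positive value in TG, 0.42 ± 0.17 (adjusted p = 0.431). In NAc the smallest p was that of Plod1, a lysyl hydroxylase, with -0.32 ± 0.06 (adjusted p = 0.338).

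The spread within a group differed widely between the collagens. In vehicle TG the coefficient of variation ran from 2.59% for Col24a1 to 161% for Col6a4, and in morphine NAc the largest was 84.6%, for Col5a1. The vehicle TG libraries of replicates 1 and 2 and the morphine TG library of replicate 1 shared high values of several genes, for example Col8a2 at 9.76, 12.3 and 13.9 CPM against 4.67 to 7.90 CPM in the other 7 ganglia and Col12a1 at 28.7, 35.7 and 40.5 CPM against 18.2 to 24.6 CPM. The same 3 libraries had the highest summed levels of 10 cartilage and bone markers, 50.4 to 54.7 CPM against 36.5 to 47.2 CPM in the others, and the part of these markers was not tested.

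**Figure D5:**
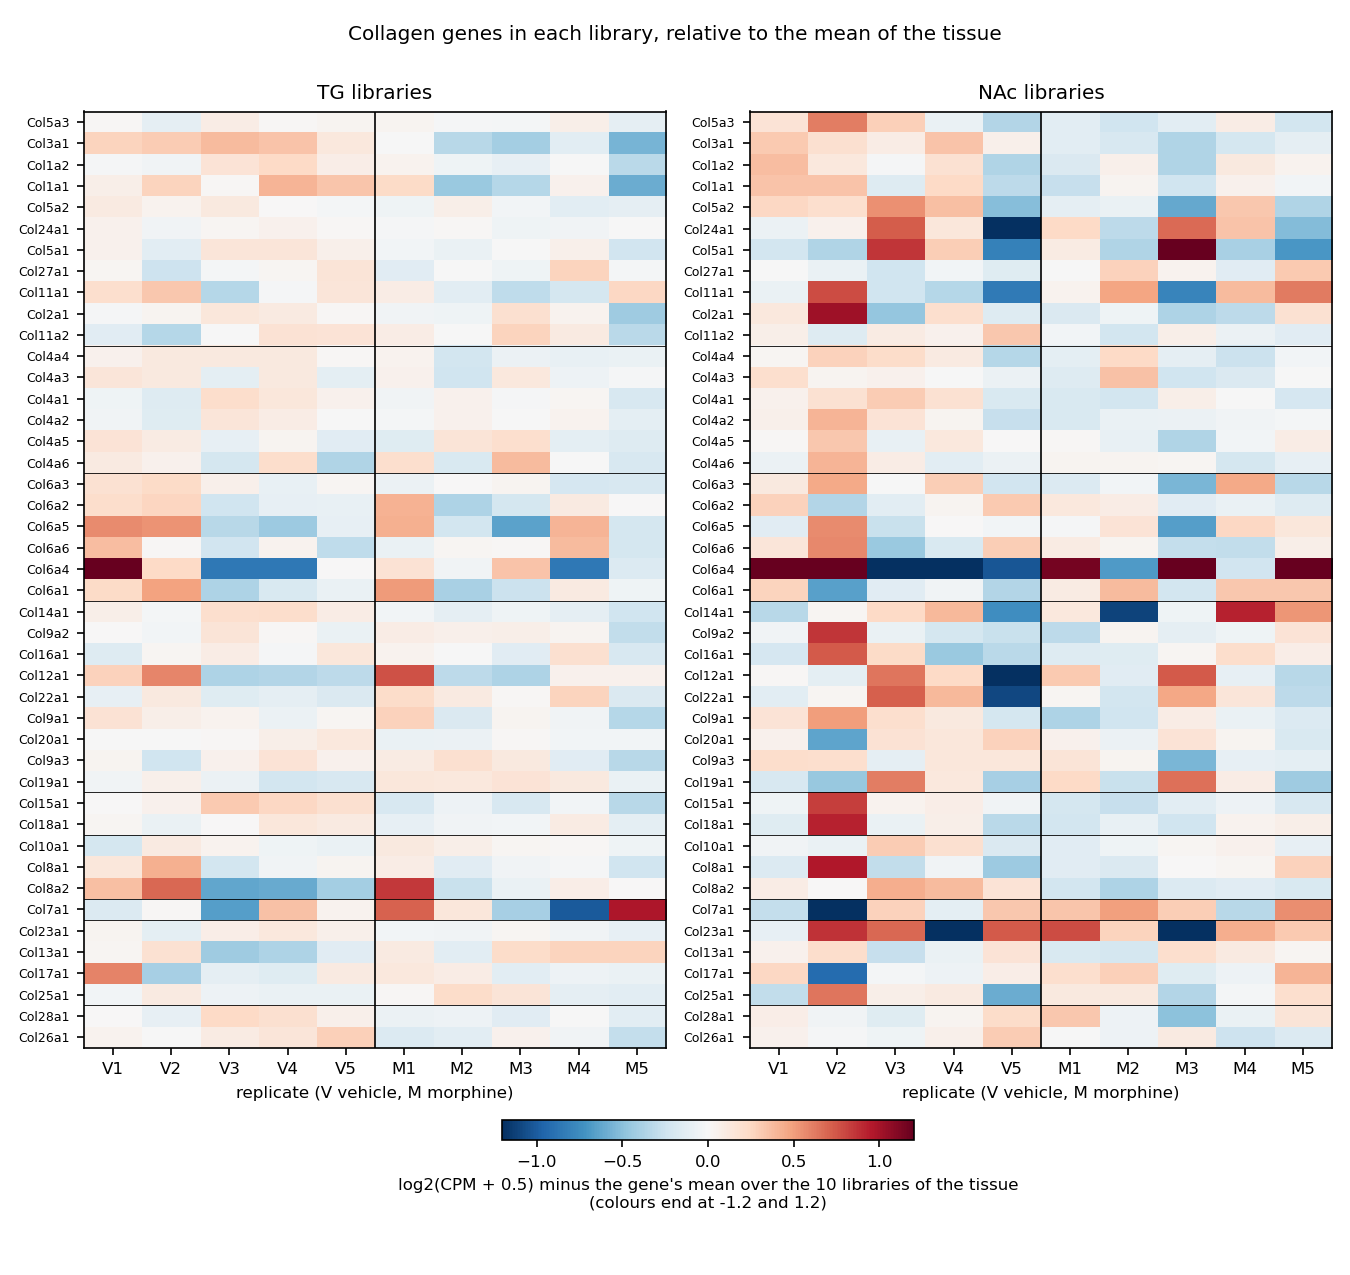
Log2(CPM + 0.5) of each collagen gene in each library minus the gene's mean over the 10 libraries of its tissue; red is above and blue below that mean, V1 to V5 are vehicle and M1 to M5 morphine replicates, and classes are separated by lines. NAc V2 is red for several genes, among them Col15a1 at 9.17 CPM and Col18a1 at 11.7 CPM, and TG V1, V2 and M1 are red for Col8a2 and Col12a1.

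The split of a gene's counts among its annotated transcripts also differed between the tissues, with the caution that the split is a model estimate. The curated coding transcript of Col4a1 held 91.0% ± 2.67 of the gene's counts in vehicle TG and 62.1% ± 6.73 in vehicle NAc, while a non-coding entry held 5.17% ± 1.91 and 22.8% ± 8.24. The longer of the pair of Col6a3 transcripts took 27.1% ± 3.24 in TG and 7.17% ± 4.75 in NAc. For Col24a1, the curated transcript with 4.28% ± 5.08 of the counts in vehicle TG held 53.9% ± 14.2 in vehicle NAc, where the gene itself was 12.5-fold scarcer. In morphine mice that Col24a1 transcript held 34.0% ± 26.1 in NAc, a range that overlapped that of TG. Between treatments, the ranges overlapped for the transcripts of Col4a1, Col6a3 and Col24a1 named here. For Col9a3, noticed after the values were seen, the curated transcript held 60.1% to 83.7% of the counts in vehicle TG and 99.0% to 100% in morphine TG, without overlap, and no test was made. It was picked from the transcripts of many genes, and how many others separated in this way was not counted. The gene held only 240 to 381 counts in each TG library.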

How the data were processed

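RNA was isolated with TRIzol and RNeasy, made into stranded mRNA libraries and sequenced for 101 cycles, per the labels' protocols; the design text says paired-end and the protocol says one end. The lane sets named there are not tied to libraries, so no batch term was possible. The deposited table holds estimated counts per transcript for 107185 transcripts, made by the authors with kallisto 0.43 on GRCm38, per the submitters' processing notes. Transcripts were matched to RefSeq genes (86608, or 80.8%, holding 90.0% of counts), summed per gene and rounded; 56.7% of the values were not whole. Unmatched transcripts stayed as features of their own.

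Treatment effects were fitted on the 10 libraries of a tissue, and tissue differences and the interaction on all 20 with 4 group means, with edgeR 4.0.16 (filterByExpr, TMM, robust quasi-likelihood, R 4.3.3), p adjusted over all features tested. The SE given with a log2 fold change was derived as its absolute value over the square root of the quasi-likelihood F statistic. It is therefore approximate. Levels are CPM with TMM factors of all 20 libraries. DESeq2 1.42.0 and limma 3.58.1 (voom with quality weights) were alternatives. Only the edgeR fit of morphine against vehicle within each tissue was run on simulated data. The alternatives, the tissue differences, the interaction and the permutation test were not. Mouse codes in the labels pair TG with NAc; deviations of such pairs correlated at -0.05 to 0.03, and a fit with mouse as block was run. Total counts limit precision through counting error, which is small beside the spread between mice for all but scarce genes.

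The collagens, pathway lists and markers were chosen with earlier results of these data known. All collagens may be named: those with the smallest p after morphine, those with the largest tissue difference and the most abundant of each class have values, and others stand by class. Of pathway lists the genes with the smallest p were to be named; Lox in TG, Timp4, Dcn, Lum and Fabp7 were added after their values had been seen.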

Additional observations from a re-analysis of the deposited data

Results flagged for a closer look

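In each group of 5 libraries the highest or lowest value was set against the others (gap to the nearest value over the whole range, Dixon's critical value 0.71). Of 176 groups, 15 held a value apart, and chance gives about 1 in 20. The vehicle NAc library of replicate 2 held 5 of them, all high: Col15a1 at 9.17 CPM, Col18a1 at 11.7 CPM, Col6a5 at 8.23 CPM, Col8a1 at 2.71 CPM and Col9a2 at 10.6 CPM. The morphine TG library of replicate 1 was high for Col12a1 (40.5 CPM) and Col8a2 (13.9 CPM). The vehicle TG library of replicate 2 was high for Col22a1 (1.59 CPM) and Col25a1 (16.6 CPM), and that of replicate 1 for Col6a4 (3.19 CPM). The morphine TG library of replicate 5 was low for Col19a1 (4.06 CPM) and Col9a2 (17.4 CPM). In NAc, Col5a1 was high in the morphine library of replicate 3 (26.0 CPM) and Col26a1 in the vehicle library of replicate 5 (10.8 CPM), and Col9a3 was low in the vehicle library of replicate 3 (14.2 CPM).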

How the results depend on the processing

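After morphine in TG, the count of collagens past the threshold was 3 with DESeq2 (Col3a1, Col15a1, Col14a1), 1 (Col3a1) with a minimum of 1 CPM in 5 libraries, with named genes alone and with the fit on all 20 libraries, and 0 to 1 on leaving out each library. In NAc it was 1 with DESeq2 (Col3a1), and 0 to 0 on leaving out each library. The replicate number as a block, which joins different mice across treatments, left 0 collagens past the threshold in each tissue; deviations of same-numbered libraries correlated at -0.01 to 0.04 in TG and 0.02 to 0.24 in NAc. With mouse as a replicate block 36 collagens passed between tissues in vehicle mice and 37 in morphine mice (Col2a1 was lost), and 0 in the interaction.

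Between tissues the counts ran from 35 to 38 in vehicle and 35 to 39 in morphine mice on leaving out each library. The median log2 fold change was 1.43 and 1.48 with scaling by library size alone, 1.58 in morphine mice with named genes alone, and 1.48 to 1.62 and 1.54 to 1.75 on leaving out each library; for the interaction it was -0.033 to 0.15. The cause of these shifts was not tested.

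A call was lost in 36 instances, for Col2a1, Col4a5, Col4a6, Col6a4 and Col20a1, a call was gained in 32 instances over 14 genes (Col6a2, Col6a6 and Col9a1 in morphine mice 4 each), and the sign turned in 15, none past the threshold in either fit. Col22a1 in vehicle mice turned to -0.016 with library size alone and ran from -0.12 to 0.44 on leaving out single libraries. Col9a1 turned to -0.11 with library size alone and ran from -0.11 to 0.26 on leaving out single libraries. Col6a4 turned to 0.048 with limma voom. Col11a1 in morphine mice turned to -0.034 with limma voom, -0.14 with library size alone, -0.0081 with the 1 CPM minimum, -0.037 with named genes alone, and to between -0.15 and -0.01 without single libraries (-0.01, -0.06, -0.02 and -0.15). Col3a1 in the interaction turned to 0.00 (0.0027) without TG morphine replicate 5.

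The count of all features past the threshold moved more: in TG from 53 to 926 with DESeq2, 80 with limma voom, 87 with the 1 CPM minimum, 123 with named genes alone, 2 with the replicate block and 21 to 77 without single libraries; in NAc from 0 to 245 with DESeq2 and 73 with the fit on all 20 libraries; in the interaction from 13 to 228 with DESeq2, 0 with limma voom and 1 with the mouse block. Depth limits the scarcest collagens, such as Col6a6, Col9a1 and Col10a1.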
